A study of Mus musculus with 96 samples.

Results

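RNA polymerase I is the enzyme that transcribes the ribosomal RNA genes of the nucleolus. The values below are mRNA levels of 10 subunits and factors of this polymerase in single EL4 cells with and without an shRNA against Ctcf. The 10 members were taken by symbol from the 24057 genes of the deposited table, namely the subunit genes Polr1a, Polr1b, Polr1c, Polr1d, Polr1e, Twistnb and Znrd1 and the factor genes Rrn3, Ubtf and Taf1d. The rule uses symbols alone, and all 10 passed the filter on low values that left 11980 genes for testing. EL4 is a T-lymphoma line of C57BL/6 mouse origin. The cultures carried a virally delivered shRNA against luciferase (shLuc, here WT) or against Ctcf (shCTCF, here CTCF-KD), with GFP as the marker of infection. Cells of each culture were captured on a Fluidigm C1 circuit of their own, and 24 cells per culture, selected for quality, were sequenced. Experiment 1 comprised shLuc #1 and shCTCF #1, and experiment 2, a second knockdown, comprised shLuc #2 and shCTCF #2. Culture, circuit and condition therefore cannot be told apart within an experiment, and whether the numbers also mark different hairpins was not settled by the sources used here.

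The ribosomal RNA genes that this polymerase transcribes lie in tandem repeats in the nucleolus. Initiation needs Ubtf, which coats the repeat, the SL1 complex, which holds TBP and TBP-associated factors such as Taf1d at the promoter, and Rrn3, which binds the polymerase and carries it to SL1. Proliferating cells spend much of their transcription on ribosomal RNA, and the pathway responds to growth signals and to MYC in lymphoid cells. The table holds the mRNAs of the machinery, not ribosomal RNA, so no value here measures the output of the polymerase.

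Of the 96 cells, 95 had at least 3000 genes with reads and were kept, which left 24 and 23 cells of the WT cultures shLuc #1 and #2 and 24 cells of each CTCF-KD culture. TPM is a unit scaled to gene length and to a fixed total per cell. Reads per cell, recovered from the deposited TPM values, had medians of 247586, 230477, 234260 and 131098 in that order, and genes with reads per cell had medians of 4771, 4635, 6173 and 5656. Ctcf, the target of the knockdown, averaged 60.3 and 37.1 TPM in the WT cultures, against 15.96 and 44.9 in the CTCF-KD cultures, with culture #1 first in every such pair of values. Its log2 level differed from the control by -1.85 in experiment 1 and by 0.27 in experiment 2. In the single-cell values alone, the direction of each comparison therefore rests, for the culture labelled shCTCF #2, on its label. The study also assayed Ctcf by qPCR and Western blot. It reported lower mRNA and protein in both shCTCF #1 and shCTCF #2 than in shLuc. Those assays were not analysed here. All 8 T-cell markers examined had reads, with summed medians from 5514 to 8084 TPM per culture. The epithelial and erythroid markers were at 0. Reads came from 1 of 3 B-cell, 2 of 4 myeloid and 2 of 3 fibroblast markers, and each of these types had a median summed level of 0 TPM in every culture. A myeloid marker had reads in 20 of 95 cells, and the highest summed myeloid level of a cell was 475 to 529 TPM per culture. The summed level of 12 G2/M genes had medians of 759 and 1105 TPM over the cells of the WT cultures and 1861 and 1304 TPM over those of the CTCF-KD cultures.

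The promoter windows of Rrn3, Twistnb and Polr1b are given first, since these were the members with the largest differences on the log scale described below. Each is the 250 bases upstream of the RefSeq transcript start in GRCm38.p6, written 5′ to 3′ on the strand of the gene, with an E-box (CACGTG, the site class bound by MYC and related proteins) or a GC box (GGGCGG, the site class bound by SP1) in capitals. The windows are chr16:13780449-13780698 (+) for Rrn3, chr12:33429374-33429623 (+) for Twistnb and chr2:129100746-129100995 (+) for Polr1b.
Rrn3: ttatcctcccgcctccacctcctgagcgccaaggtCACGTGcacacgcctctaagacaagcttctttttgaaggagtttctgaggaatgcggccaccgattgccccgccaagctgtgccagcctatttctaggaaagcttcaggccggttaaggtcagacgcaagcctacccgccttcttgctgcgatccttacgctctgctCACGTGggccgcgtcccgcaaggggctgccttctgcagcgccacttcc
Twistnb: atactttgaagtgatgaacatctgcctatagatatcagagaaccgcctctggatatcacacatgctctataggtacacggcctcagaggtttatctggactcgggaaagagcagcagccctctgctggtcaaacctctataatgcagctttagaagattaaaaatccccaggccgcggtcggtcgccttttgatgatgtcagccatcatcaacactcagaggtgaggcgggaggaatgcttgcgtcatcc
Polr1b: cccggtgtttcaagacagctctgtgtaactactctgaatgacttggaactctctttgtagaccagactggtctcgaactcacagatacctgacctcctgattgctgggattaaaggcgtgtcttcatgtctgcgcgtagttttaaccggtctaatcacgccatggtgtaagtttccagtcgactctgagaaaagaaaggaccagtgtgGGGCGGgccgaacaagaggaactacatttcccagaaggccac
Rrn3 had E-boxes at positions -215 to -210 and -48 to -43, counted from -1 at the base before the start, and no other member had this motif in its windows. Over all 32851 RefSeq windows of this length, searched on both strands, 6.02% held an E-box and 32.7% a GC box. An E-box was found in 1 of the 16 windows of the members and a GC box in 9. The windows with a GC box belong to 5 of the 10 members, among them Polr1b at -42 to -37. Most of those windows are alternative windows of Ubtf. A member can have several windows, so a count of members is not on the scale of the shares of windows. The letters CCGGAAGT, an ETS motif, stood in 2.88% of all windows and, of the members, in that of Polr1c. The 3 motifs share no letters by overlap in the windows shown. A match describes the letters, not binding.

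The members did not all differ in the same direction. Polr1a, Polr1b, Polr1c, Rrn3, Taf1d and Twistnb were higher in both CTCF-KD cultures than in both WT cultures, Polr1e and Ubtf were lower in both, and the cultures of Polr1d and Znrd1 overlapped. Culture levels are the log2 of the mean TPM over cells plus 1, and SDs beside mean TPM are over cells, with a difference of 1 on this scale equal to a doubling for genes well above 1 TPM. Of all genes tested, 19.9% were higher in both CTCF-KD cultures and 16.9% lower in both, so 6 and 2 of 10 members stand against those shares. With 2 cultures per condition no member passed an adjusted p of 0.05 in limma, and no gene among the 11980 did (574 higher and 338 lower at an unadjusted p under 0.05, or 4.79% and 2.82%). Of the members, 2 were under that unadjusted limit, and 3, all higher, with the experiment as a block (7.66% of genes). The median difference of the 10 members was 0.37, beside 0.04 over all genes tested. The sizes depended on single cultures. Twistnb went from 1.47 to 0.79 without shCTCF #2, Polr1b from 1.81 to 0.91 without shLuc #2 and 2.71 without shLuc #1, Rrn3 from 1.25 to 0.80 without shLuc #1, and Taf1d from 0.49 to 0.23 without shCTCF #2 and 0.31 without shLuc #1. Without shCTCF #1, Taf1d was at 0.75.

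**Figure D1:**
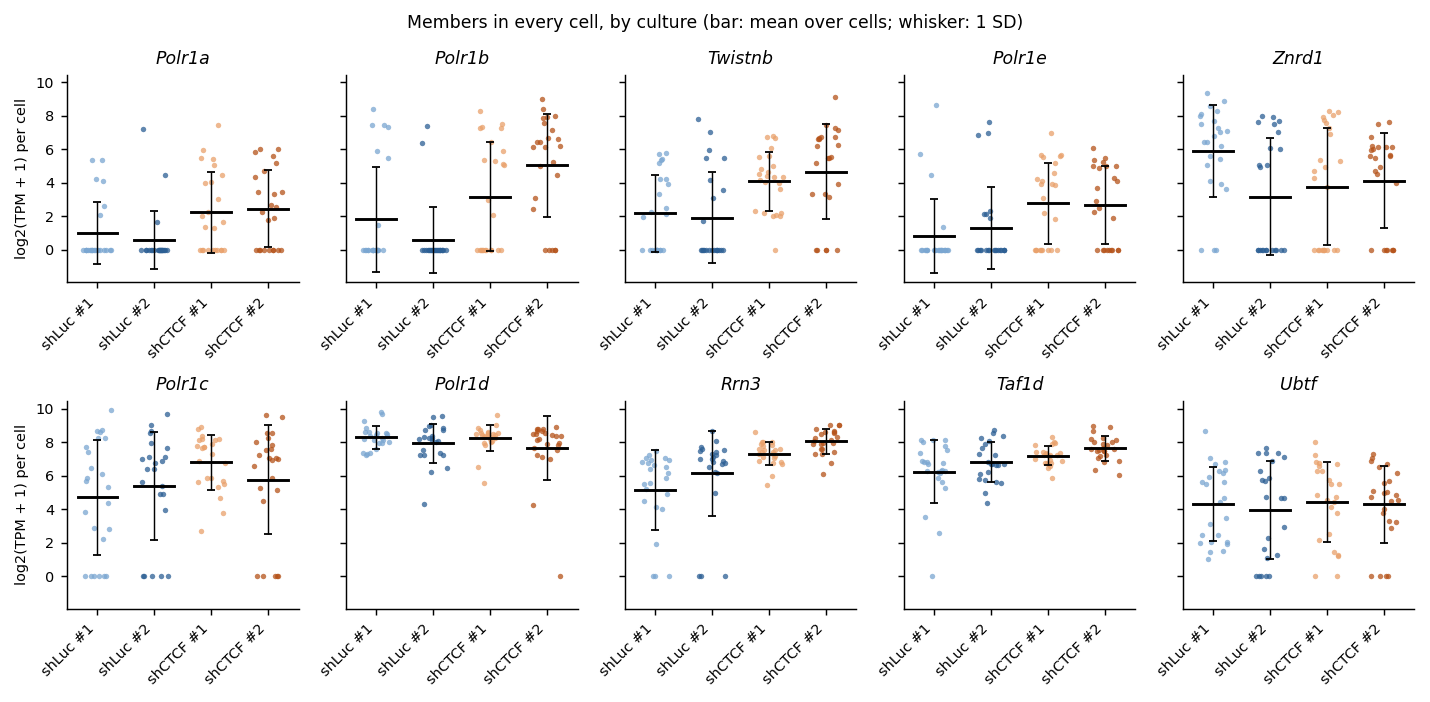
Level of each member in every cell kept, as log2(TPM + 1) on the vertical axis and by culture on the horizontal axis. A point is a cell, the bar is the mean over cells and the whisker 1 SD. Some cells of Rrn3 lie at 0 in both WT cultures and in neither CTCF-KD culture, and Polr1a, Polr1b and Polr1e have most of their WT cells at 0.

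Polr1a and Polr1b, the largest subunits, form the active centre of the polymerase. Polr1a (chromosome 6, 71909053 to 71984935, plus strand, coordinates here and below from GENCODE on GRCm38) averaged 5.10 and 7.54 TPM in the WT cultures (SD 11.8 and 31.4), against 17.6 and 15.04 in the CTCF-KD cultures (SD 37.1 and 21.8). Both CTCF-KD cultures were above both WT cultures, and in shLuc #2 a cell at 150.4 TPM held 86.7% of the culture's sum. The log2 difference was 1.26 (standard error 0.80, adjusted p = 0.775, limma), with 1.61 in experiment 1 and 0.91 in experiment 2. Polr1b (chromosome 2, 129100995 to 129126594, plus strand) averaged 39.8 and 10.7 TPM in the WT cultures (SD 85.8 and 37.5), against 52.5 and 109 in the CTCF-KD cultures (SD 81.6 and 130.3). The gap between shLuc #1 and shCTCF #1 was small, whereas the culture labelled shCTCF #2 stood far above its control. Its log2 difference of 1.81 (standard error 0.75, adjusted p = 0.649, limma) combined 0.39 in experiment 1 with 3.23 in experiment 2. It was the largest of the members, and 95.6% of genes tested lay below it.

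Polr1c and Polr1d, which pair in the early assembly of the enzyme and belong to RNA polymerase III as well, had steady culture levels. Polr1c (chromosome 17, 46243920 to 46248054, minus strand) averaged 147 and 153 TPM in the WT cultures (SD 227 and 203), against 175 and 180.0 in the CTCF-KD cultures (SD 137 and 210). The CTCF-KD cultures were higher by a small margin, a log2 difference of 0.24 (standard error 0.32, adjusted p = 0.886, limma). Polr1d (chromosome 5, 147077050 to 147111597, plus strand) averaged 353 and 311 TPM in the WT cultures (SD 193 and 192), against 339.9 and 283 in the CTCF-KD cultures (SD 139 and 133). The conditions overlapped, with a log2 difference of -0.10 (standard error 0.30, adjusted p = 0.964, limma). This subunit had the highest level of the members in 3 of the 4 cultures, with Rrn3 above it in shCTCF #2, and reads in 94 of 95 cells.

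Polr1e, Twistnb and Znrd1 encode peripheral subunits. Twistnb, since renamed Polr1f, makes part of the stalk that meets Rrn3 (chromosome 12, 33429635 to 33441392, plus strand). It averaged 12.3 and 23.4 TPM in the WT cultures (SD 17.95 and 53.1), against 30.1 and 78.99 in the CTCF-KD cultures (SD 33.7 and 117). Each CTCF-KD culture was above its control and above both controls, by a log2 difference of 1.47 (standard error 0.70, adjusted p = 0.693, limma), 1.22 in experiment 1 and 1.71 in experiment 2. Polr1e, a subunit of the dimer that helps the enzyme to initiate and elongate (chromosome 4, 45018583 to 45036565, plus strand), averaged 19.8 and 19.5 TPM in the WT cultures (SD 82.1 and 51.3), against 19.3 and 15.5 in the CTCF-KD cultures (SD 28.4 and 18.7). The means were alike, at a log2 difference of -0.17 (standard error 0.65, adjusted p = 0.973, limma), but they came from different cells. In shLuc #1, 1 cell at 402 TPM held 84.3% of the sum and 20 of 24 cells had no reads, whereas 15 of 24 cells had reads in each CTCF-KD culture. Without the highest cell of each culture, an alternative chosen after the data were seen, the difference turned to 1.05 (adjusted p = 0.711, limma). The 3′ end of Polr1e overlaps Fbxo10 on the other strand, which had 132 reads in 4 cells.

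Znrd1, since renamed Polr1h, encodes the small subunit that takes part in RNA cleavage and termination (chromosome 17, 36954356 to 36958559, minus strand). It averaged 153 and 62.7 TPM in the WT cultures (SD 169 and 89.9), against 82.2 and 48.8 in the CTCF-KD cultures (SD 111 and 52.8). The conditions overlapped, since shLuc #2 lay below shCTCF #1. The log2 difference was -0.62 (standard error 0.56, adjusted p = 0.830, limma), with -0.89 in experiment 1 and -0.35 in experiment 2, and 0.02 without shLuc #1.

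Rrn3, which makes the polymerase competent to initiate, was higher by a similar step in each experiment (chromosome 16, 13780708 to 13814839, plus strand). It averaged 69.4 and 131 TPM in the WT cultures (SD 54.1 and 91.2), against 175 and 296 in the CTCF-KD cultures (SD 74.4 and 130.1). Both CTCF-KD cultures were above both WT cultures, and the log2 difference was 1.32 in experiment 1 and 1.17 in experiment 2. The difference of 1.25 (standard error 0.46) had an unadjusted p of 0.0329 and an adjusted p of 0.622 in limma, and with the experiment as a block these were 0.00237 and 0.237. The median of the pooled WT cells was 101 TPM, and 8 of 24 and 15 of 23 cells of the WT cultures lay above it, against 22 of 24 and 23 of 24 cells of the CTCF-KD cultures. The lowest CTCF-KD cells were at 43.2 TPM in shCTCF #1 and 66.9 in shCTCF #2, while 3 cells of each WT culture had no reads. The counts behind these levels were 844, 1299, 1903 and 1716 recovered reads.

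Taf1d, the SL1 component, resembled Rrn3 at a smaller size (chromosome 9, 15306214 to 15316991, plus strand). It averaged 118 and 150.0 TPM in the WT cultures (SD 88.5 and 117), against 156 and 224 in the CTCF-KD cultures (SD 61.6 and 115). The gap between shLuc #2 and shCTCF #1 was narrow, and the log2 difference was 0.49 (standard error 0.37, adjusted p = 0.794, limma). Above the pooled WT median of 101 TPM lay 11 of 24 and 12 of 23 WT cells and 21 of 24 and 22 of 24 CTCF-KD cells. Taf1d overlaps Cep295 (1369 reads) and 4931406C07Rik (130 reads) on the other strand and hosts small nucleolar RNAs, and since strand-aware counting was not stated, reads of these genes may be mixed. Ubtf, the architectural factor of the repeat (chromosome 11, 102304560 to 102319742, minus strand), averaged 52.7 and 55.3 TPM in the WT cultures (SD 84.5 and 67.1), against 52.5 and 42.3 in the CTCF-KD cultures (SD 62.2 and 45.9). Although both CTCF-KD cultures were the lower ones, the difference in experiment 1 was -0.0047, and the overall log2 difference was -0.19 (standard error 0.44, adjusted p = 0.946, limma).

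**Figure D2:**
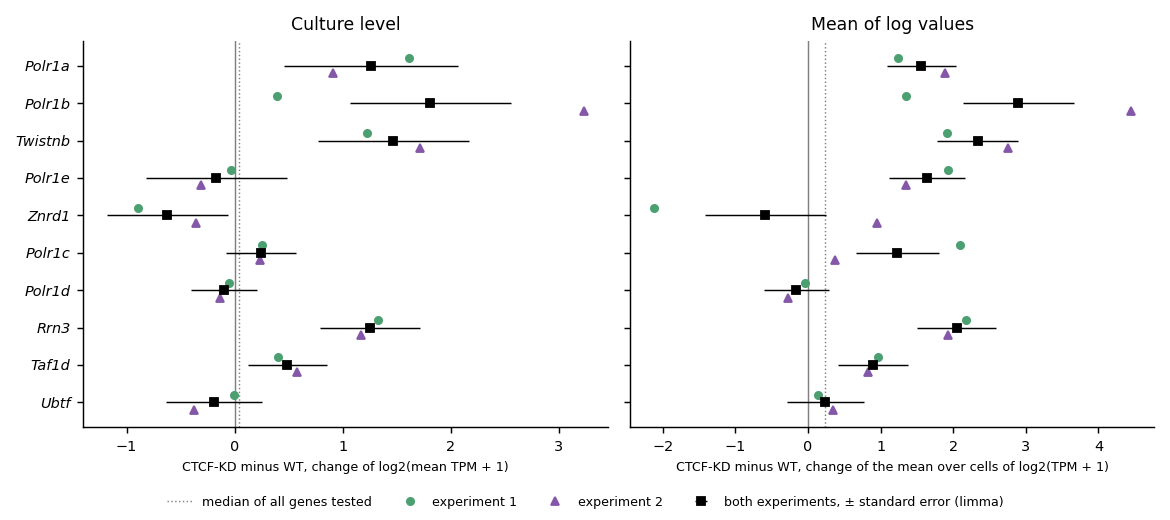
Difference of each member, CTCF-KD minus WT, for the log2 of the culture mean (left) and for the mean over cells of log2(TPM + 1) (right). The horizontal axes are in log2 units, circles and triangles are experiments 1 and 2, squares are both experiments with the limma standard error, and the dotted line is the median of all genes tested. Polr1e lies at -0.17 on the left and at 1.64 on the right, and Polr1b shows the widest gap between experiments, 0.39 and 3.23 on the left.

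Averaging the log values of cells, which weights low cells more than the mean TPM does, gave larger differences. On that scale 7 members were higher in both CTCF-KD cultures, against 36.2% of genes tested, and the median over all genes was 0.23 rather than 0.04. The values were 2.90 for Polr1b, 2.34 for Twistnb, 2.05 for Rrn3, 1.64 for Polr1e, 1.56 for Polr1a, 1.23 for Polr1c, 0.89 for Taf1d and 0.24 for Ubtf. Polr1e and Ubtf thus turned direction with the scale, and Polr1d (-0.16) and Znrd1 (-0.59) stayed negative. Without a block, limma called 0 members and 44 genes higher (0.367%) and 2 lower (0.0167%). With the experiment as a block on this scale, a combination chosen after the data were seen, Polr1b (adjusted p = 0.0479), Rrn3 (adjusted p = 0.0145) and Twistnb (adjusted p = 0.0341) passed in limma, 3 of 10 members beside 5.43% of all genes. The number of genes with reads per cell was also higher in CTCF-KD, and its part in these values was not tested.

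The number of cells with any reads of a subunit also differed between the conditions. Polr1a had reads in 6 of 24 and 3 of 23 WT cells of cultures #1 and #2 and in 14 of 24 and 15 of 24 CTCF-KD cells. In the same order Polr1b had reads in 7, 2, 13 and 19 cells, and Polr1e in 4, 7, 15 and 15. Twistnb had reads in 13, 9, 23 and 19 cells. In these 4 members the CTCF-KD shares exceeded the WT shares by 41.4, 47.7, 38.9 and 40.9 percentage points (exact permutation test, two-sided, p = 0.333 each, the smallest value possible for 2 cultures against 2). Polr1c, with 18, 18, 24 and 19 cells, and Rrn3, with 21, 20, 24 and 24, were also higher in both CTCF-KD cultures, by 12.95 and 12.8 points.

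The 6 members with non-overlapping, higher shares stand against 36.2% of all genes tested, and 0 members were lower in both (5.96% of genes). After each cell was thinned to 80000 reads, which left out 1 shallower cell of shCTCF #2, the same comparison gave 6 members and 38.8% of genes. Among cells with 4500 to 6500 genes with reads, chosen after the data were seen, it gave 4 members and 22.7% of genes, namely Polr1a (27.7 points), Polr1b (39.2), Polr1e (33.1) and Twistnb (31.04). In that window Polr1c and Rrn3 differed by 3.54 and 3.13 points. Taf1d had reads in 23 of 24, 23 of 23, 24 of 24 and 24 of 24 cells, and Polr1d in 24 of 24, 23 of 23, 24 of 24 and 23 of 24. Ubtf had reads in 24 of 24, 18 of 23, 22 of 24 and 20 of 24 cells, and Znrd1 in 21 of 24, 11 of 23, 14 of 24 and 17 of 24, with the conditions overlapping in both.

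**Figure D3:**
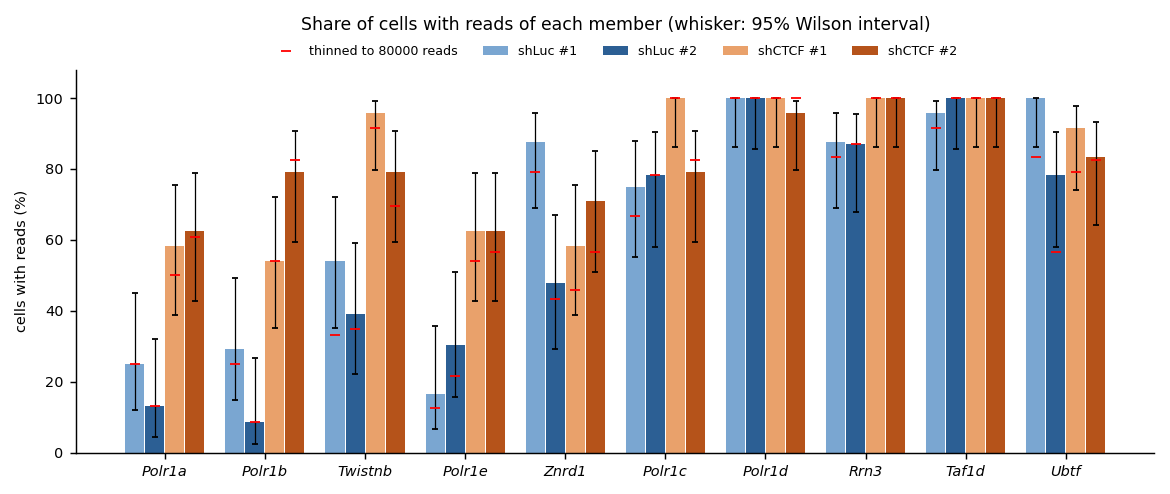
Percent of cells with reads of each member, by culture, with 95% Wilson intervals and, in red, the percent after thinning to 80000 reads. The intervals cover the sampling of cells within a culture only. The CTCF-KD bars of Polr1a, Polr1b, Twistnb and Polr1e exceed their WT bars by 38.9 to 47.7 points on average, while Polr1d and Taf1d are near 100% in every culture.

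A WT cell had reads of 6.71 members on average in culture #1 (SD 1.40) and 5.83 in culture #2 (SD 1.44), and a CTCF-KD cell of 8.21 (SD 1.35) and 8.13 (SD 1.57). The CTCF-KD cultures were above the WT cultures by 1.90 members (exact permutation test, two-sided, p = 0.333), by 2.11 after thinning and by 1.29 in cells with 4500 to 6500 genes. At least 8 of the 10 members had reads in 7, 1, 18 and 18 cells. Per 1000 genes with reads, however, a cell held 1.37, 1.25, 1.35 and 1.49 members, and here shLuc #1 lay above shCTCF #1. Within cultures, the number of members and the number of genes with reads correlated with a Pearson r from 0.33 to 0.64 over 23 or 24 cells that share depth, given as a description. The summed level of the 10 members averaged 970.2 and 924 TPM in the WT cultures, against 1100.1 and 1292 in the CTCF-KD cultures.

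Cell-to-cell variation was read as a CV, the SD divided by the mean of log2(TPM + 1), with the cells of a condition pooled. The rule of the study calls genes by how far the CV difference departs from the average of all genes. Applied here to 7843 genes, with bounds 1 SD either side of that average at -0.69 and 0.13, it compares a gene with other genes and does not test replicates. It placed Polr1a (CV 2.28 in WT, 0.99 in CTCF-KD), Polr1b (2.19 and 0.79) and Polr1e (2.17 and 0.87) among the genes with lower variation, 3 of 10 members beside 11.3% of genes, and no member among those with higher variation (7.68% of genes). In experiment 1 alone it called Polr1e lower (11% of genes) and Znrd1 higher (7.35%), and in experiment 2 alone Polr1a, Polr1b, Polr1e and Twistnb lower (10.5%), so Polr1e passed it in each experiment, as did 3.79% of genes. After thinning, Znrd1 was also called higher (7.56%) and Twistnb lower (10.7%). The SD itself was not lower in Polr1a, Polr1b and Polr1e. It went from 1.80 to 2.33 for Polr1a, from 2.67 to 3.26 for Polr1b and from 2.32 to 2.36 for Polr1e, while their mean log2 levels went from 0.79 to 2.35, from 1.22 to 4.10 and from 1.07 to 2.71. After subtraction of the running median CV of genes at the same mean, Polr1b (-0.18) and Polr1e (-0.28) remained beyond 1 SD, as did 7.32% of genes, and Polr1a was at 0.03.

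Rrn3 and Taf1d differed from these in that the SD was lower. For Rrn3 the SD of log2(TPM + 1) was 2.37 and 2.54 in the WT cultures against 0.68 and 0.73 in the CTCF-KD cultures. For Taf1d it was 1.89 and 1.18 against 0.56 and 0.73. Cells without reads enter these SDs, and the CVs below, as 0. Rrn3 had reads in 21 of 24 and 20 of 23 WT cells and in 24 of 24 cells of each CTCF-KD culture. Taf1d lacked reads only in 1 cell of shLuc #1. The part of such cells in the SDs and CVs was not tested. Of the 10 members, only Rrn3 and Taf1d had the SDs of both CTCF-KD cultures below those of both WT cultures. These 2 of 10 are a smaller share than the 36.9% of all genes. The CV of Rrn3 was 0.46 and 0.41 in the WT cultures and 0.092 and 0.091 in the CTCF-KD cultures, and in limma on culture CVs Rrn3 was the member called (difference -0.34, standard error 0.057, adjusted p = 0.0359), 1 of 10 members beside 4.14% of genes called lower. With the experiment as a block, limma called 6 members lower beside 19.9% of genes, with adjusted p = 1.3e-05 for Rrn3. With so few cultures, the fit with a block leans on the variance that limma pools over genes. In all, 7 members had lower CVs in both CTCF-KD cultures, and 53.9% of genes did. Under the study's rule neither Rrn3 (-0.34) nor Taf1d (-0.15) was called, and against the running median Rrn3 was at -0.06.

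**Figure D4:**
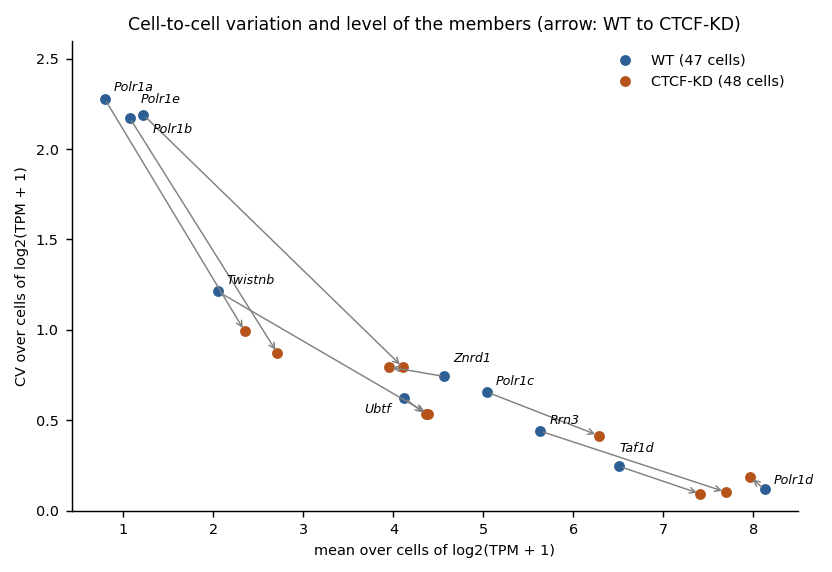
CV over cells against the mean over cells of log2(TPM + 1) for the 10 members, both from the pooled cells of a condition, with an arrow from WT (blue) to CTCF-KD (orange). Members with a higher mean mostly have a lower CV, from Polr1a at 2.28 in WT to Taf1d at 0.09 in CTCF-KD, and the arrows of Polr1a, Polr1b and Polr1e descend most (-1.29, -1.40 and -1.30).

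Per unit of length, as TPM gives it, the members ranked from Polr1d (mean of the 4 cultures 322 TPM) through Rrn3 (168), Polr1c (164), Taf1d (162), Znrd1 (86.8), Polr1b (52.9), Ubtf (50.7), Twistnb (36.2) and Polr1e (18.5) to Polr1a (11.3). The culture ranges of every pair of neighbours in this order overlapped, so none differed from the next beyond the spread over cultures, and that of Polr1d (283 to 353) met that of Rrn3 through shCTCF #2 at 296. Over 95 cells, with each culture centred on its mean, correlations of log2(TPM + 1) were taken for the 45 pairs of members. The Pearson r ranged from -0.20 to 0.25 with a median of 0.06, in cells that share depth. Cells without reads enter as 0, and Polr1a, Polr1b and Polr1e had reads in only 38, 41 and 41 of 95. The part of such cells in these correlations was not tested. For Polr1d, which together with Taf1d had reads in the most cells (94), the closest of 5034 genes were Rpl13 (0.66) and Prr13 (0.65). Over the 94 cells with Polr1d reads these were 0.27 and 0.37, so much of the likeness, but not all, rested on 1 cell.

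Around the 10 members, the genes that act on the same polymerase were read from lists of subunits and factors. In each list 0 genes passed limma on culture levels, and counts here are of genes whose CTCF-KD cultures were both above or both below the WT cultures, to be read beside the 19.9% and 16.9% of all genes. Of the 5 subunits that RNA polymerase I shares with polymerases II and III, 3 were higher and 0 lower (median log2 difference 0.53). Polr2h was at 0.71, Polr2k at 0.61, Polr2e at 0.53 and Polr2l lowest at -0.02. The difference of Polr2e was 1.05 in experiment 1 and 0.014 in experiment 2. Of the other 4 SL1 proteins, Tbp was higher (0.42) and Taf1a lower (-0.60). Of 14 regulators, 8 were higher and 1 lower (median 0.61). Nolc1, a nucleolar protein, averaged 34.9 and 28.4 TPM in the WT cultures, against 152 and 217 in the CTCF-KD cultures. Its log2 difference was 2.49 (standard error 0.42, adjusted p = 0.585, limma). Mybbp1a was at 1.77, and Baz2a was the lower one at -1.20. The regulators were not divided by whether they raise or lower ribosomal RNA transcription.

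The UTP group holds small-subunit processome proteins, of which several are needed for ribosomal RNA transcription. All 6 of its genes were higher in both CTCF-KD cultures (median 1.14). The smallest difference among them in experiment 1 was 0.0074. Cirh1a was at 1.77, Wdr75 at 1.35, Nol11 at 1.22 and Utp15 lowest at 0.54. Of 6 polymerase II subunits 2 were higher and 0 lower (median 0.45, with Polr2c at 0.46, Polr2j at 0.44 and Polr2b at -0.23). Of 21 polymerase III subunits and factors 4 were higher, about the share of all genes, and 0 lower (median 0.04, with Polr3e at 2.45, Gtf3a at 1.14, Gtf3c2 at 0.91 and Gtf3c5 at -1.55). Of 12 G2/M genes 0 were higher and 5 lower (median -0.17), with Aurka at -1.12, Mki67 at -0.97 and Tpx2 at -0.91, but the direction turned on the mean of log values, where their median was 1.47 and all 12 were positive. The lists were compared by counts and medians, and differences between lists were not tested.

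**Figure D5:**
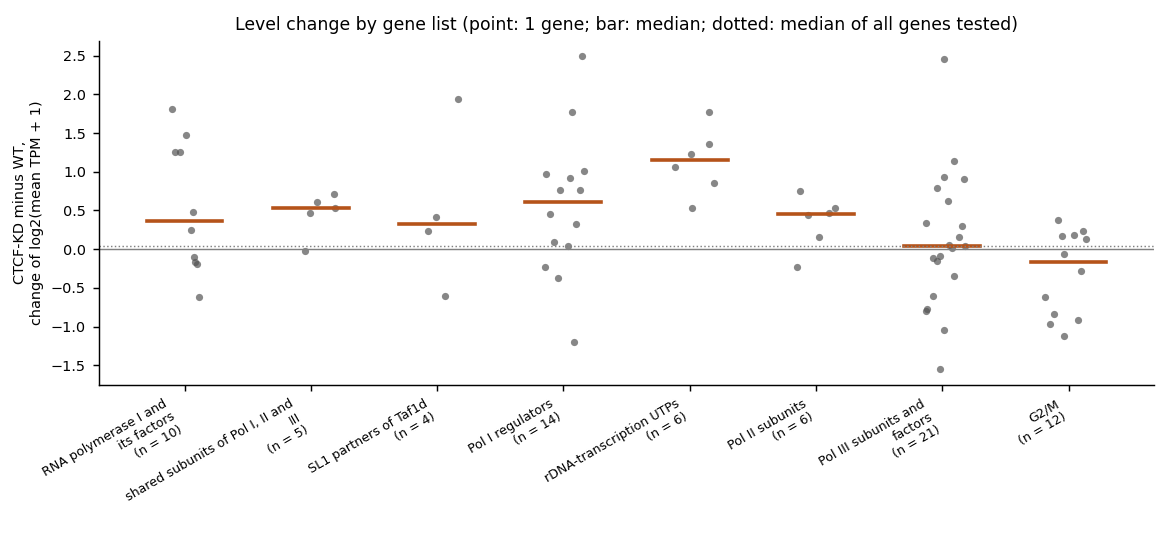
Log2 difference of culture levels, CTCF-KD minus WT, of each gene in the 10 members and in 7 lists around them, with the number of genes tested under each name. A point is a gene, the bar is the median of the list, and the dotted line is the median of all genes tested (0.04). All 6 UTP genes lie above 0, and the 10 members spread from -0.62 to 1.81.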

How the data were processed

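Single-cell RNA-seq of 96 EL4 cells was used. The authors aligned reads to GRCm38 with STAR, counted uniquely mapped reads per RefSeq gene with HTSeq and deposited TPM, which adjusts for gene length and sums to a fixed total per cell. No molecular identifiers were described. The Wilson intervals cover the sampling of cells within a culture only, not the spread between cultures. The steps of the TPM values gave back whole reads (within 0.001 of whole for 100% of genes), used for depth and thinning, and 1 cell with 81 genes was dropped. Genes above 1 on the log2(TPM + 1) scale in 2 cells or more were tested with limma 3.58.1 (R 4.3.3) on log2(mean TPM + 1) of 4 cultures, with trend and Benjamini-Hochberg adjustment over all 11980 genes, a pseudocount of 1, and a threshold of 0.05. The log scale understates differences of low genes. The code was tested on simulated data. The culture number pairs the samples, since it marks the experiment in the study's methods (correlation of deviations 0.18). Nothing says that cultures were independent beyond this, so p-values measure the spread between these cultures. Named genes are the members, Ctcf and, per list, up to 3 genes with non-overlapping cultures and the largest differences plus the lowest gene. The regulator Ptrf had no value above the filter. Members and lists were chosen with earlier results of these data known. Alternatives covered the scale, pseudocount, filters, scaling, depth, block and each culture left out. A gene named by the rule on likeness is not reported here.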

Additional observations from a re-analysis of the deposited data

Results flagged for a closer look

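For 3 genes the experiments gave opposite directions, and the difference between experiments was not tested. The share of cells with Znrd1 reads differed by -29.2 percentage points between CTCF-KD and WT in experiment 1 and by 23.01 points in experiment 2, and its CV difference was 0.46 and -0.42. The share of cells with Ubtf reads differed by -8.33 and 5.07 points, and its CV by 0.020 and -0.20. The log2 level of Ctcf itself differed by -1.85 in experiment 1 and by 0.27 in experiment 2. Each experiment holds 1 culture per condition.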

How the results depend on the processing

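Polr1a, Polr1b, Polr1c, Rrn3, Taf1d and Twistnb had a higher level in CTCF-KD under all 19 settings run. Many of these settings could not have turned the direction. The cultures of these members did not overlap, so leaving out a culture or taking 1 experiment alone keeps the sign. The block and the filters leave the difference itself unchanged. Level differences that turned direction were, with a culture left out, Polr1d (-0.23 to 0.036, the highest without shCTCF #2) and Znrd1 (-1.26 to 0.016, the highest without shLuc #1). Others were Ubtf on the mean of log values with or without the replicate block (0.24), Polr1e on the same scale (1.64), without the highest cell of each culture (1.05) and in cells with 4500 to 6500 genes (0.83), and Ctcf in experiment 2 alone (0.27). With all 96 cells Polr1d was at -0.71, as the dropped cell of shLuc #2 held 10319 TPM. On the mean of log values 44 genes were called higher, 2 lower and 2 of the pathway genes, and with the block 650, 37 and 9, with 3 members. With the block alone, paired by experiment, 0 genes were called, as without it. The count of members with lower variation went from 3 to 1 in experiment 1 alone and in limma on culture CVs. It was 6 in that limma with the block and 2 against the running median. Twistnb also passed the lower bound in experiment 2 alone, after thinning, with a pseudocount of 0.1, and without shLuc #1 or shCTCF #2. The count with higher variation was 1 in experiment 1 alone and after thinning, and 0 to 1 with a culture left out. CV differences that turned direction were, with a culture left out, Ubtf (-0.21 to 0.014, the highest without shLuc #2), Znrd1 (-0.30 to 0.33, negative without shLuc #1 or shCTCF #1) and Polr1d (-0.023 to 0.13, the lowest without shCTCF #2). Others were Ubtf in experiment 1 (0.020), Znrd1 in experiment 2 (-0.42), Polr1d on linear TPM (-0.13) and after thinning (-0.021), and, against the running median, Polr1a (0.026), Ubtf (0.054) and Twistnb (0.031). Causes were not tested. Depth was lowest in shCTCF #2.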
